A study of Mus musculus with 6 samples.

Results

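C/D box small nucleolar RNAs (snoRNAs) were described in RNA sequencing libraries of mouse bone marrow. They were taken by name, as every entry whose symbol is Snord followed by a digit, and 99 of the 47561 entries in the files met this rule. RNA came from 3 bone marrow samples labelled control (negative control) and 3 labelled CUMS, from mice put through chronic unpredictable mild stress, a sequence of changing mild stressors used as a rodent model of depression, for 4 weeks. Strain, sex and age of the mice, and whether each library is 1 animal, were not given in the sources used here. Markers of the labelled tissue were present: the 7 erythroid and 8 neutrophil markers examined were all above 0, and the erythroid markers alone held 24.2% to 29.6% of the summed expression values of a library.

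C/D box snoRNAs are short non-coding RNAs of the nucleolus. Each carries a conserved C box near its 5′ end and a D box near its 3′ end, which are bound by a core of Snu13, Nop56, Nop58 and the methyltransferase fibrillarin (Fbl). Most of them base-pair with ribosomal RNA and direct 2′-O-methylation at the paired nucleotide, whereas a few (U3, U8, U14 and U22) are needed for cleavage of the ribosomal RNA precursor. In mammals most are encoded in introns of other genes, many of them genes for ribosomal proteins and translation factors, and are released after splicing, debranching and trimming. Ribosome production is high in the dividing precursor cells of the marrow.

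A sequence was found for 92 of the 99 members, in GENCODE transcripts of the mouse build GRCm38, which is also the build named mm10. The members shown here are those on which the comparison turns. They are written 5′ to 3′ as DNA, with the core of the C box (TGATG, looked for in the first 20 bases) and the D box (CTGA, looked for in the last 20 bases) in capitals. Snord22 (chr19:8725866-8725991, plus strand, within Snhg1) and Snord2 (chr16:23108953-23109021, plus strand, within Eif4a2) had the smallest p and the largest change, respectively, among members whose groups did not overlap; both lie under an exon of at least 1 annotated transcript of the host. Snord16a (chr9:64175423-64175521, plus strand, within Rpl4), Snord49a (chr11:62603450-62603521, plus strand, within 2410006H16Rik) and Snord83b (chr15:80078498-80078591, minus strand, within Rpl3) are further members whose groups did not overlap. Snord16a also lies under a host exon, whereas no annotated host exon lies over Snord49a or Snord83b. Snord34 (chr7:45126601-45126670, minus strand, within Rpl13a) and Snord72 (chr15:5118404-5118484, plus strand, within Rpl37), both under no annotated host exon, are shown because they are set beside their host gene.
Snord22: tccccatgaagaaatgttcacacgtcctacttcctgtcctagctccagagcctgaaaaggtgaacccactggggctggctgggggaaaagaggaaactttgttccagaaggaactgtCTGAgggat
Snord2: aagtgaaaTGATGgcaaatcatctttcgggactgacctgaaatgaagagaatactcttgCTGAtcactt
Snord16a: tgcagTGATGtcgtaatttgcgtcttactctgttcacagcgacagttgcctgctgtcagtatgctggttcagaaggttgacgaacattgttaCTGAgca
Snord49a: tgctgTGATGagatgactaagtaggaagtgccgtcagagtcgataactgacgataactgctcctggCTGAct
Snord83b: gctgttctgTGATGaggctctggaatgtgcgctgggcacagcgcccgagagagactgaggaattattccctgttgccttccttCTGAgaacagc
Snord34: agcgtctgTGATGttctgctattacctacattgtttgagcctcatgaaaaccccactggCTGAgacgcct
Snord72: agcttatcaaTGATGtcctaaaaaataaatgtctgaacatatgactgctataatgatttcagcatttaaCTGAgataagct

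Searched on the transcribed strand only, both boxes were found in 78 of the 92 members (84.8%). Both were found in 4.8% of 5774 other annotated transcripts of 60 to 150 bases, and in 0 of 37 transcripts of the H/ACA class (Snora genes), which guide pseudouridylation and use other boxes. The name rule thus picked RNAs with the sequence of the class. Snord22 lacks TGATG in its first 20 bases and matches at the D box only. Lengths of the 94 members found in the RefSeq gene table ran from 28 to 221 bp with a median of 76.5 bp, and 93 of them were shorter than the 151 bp reads. The 92 GENCODE transcripts searched here ran from 64 to 238 bases with a median of 86. Snord98, the shortest entry in RefSeq, had 65 bases in GENCODE.

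The second group of sequences is shown because its members are copies of 1 snoRNA. U14, encoded by the Snord14 genes, pairs with ribosomal RNA of the small subunit and is needed for its processing. Snord14a (chr7:116333171-116333257, minus strand) lies within Rps13. Snord14c (chr9:40803583-40803668), Snord14d (chr9:40803995-40804080) and Snord14e (chr9:40804748-40804837), all on the plus strand, lie within Hspa8, the gene of the constitutive heat shock protein of that name. Snord14c and Snord14d are 97.7% identical, so that the counting could split reads between them, whereas Snord14a is 82.2% identical to Snord14e and 78.2% to Snord14c.
Snord14a: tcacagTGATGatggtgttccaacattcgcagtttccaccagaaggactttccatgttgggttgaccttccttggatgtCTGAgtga
Snord14c: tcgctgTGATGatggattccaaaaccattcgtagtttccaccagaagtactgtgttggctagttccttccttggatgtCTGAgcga
Snord14d: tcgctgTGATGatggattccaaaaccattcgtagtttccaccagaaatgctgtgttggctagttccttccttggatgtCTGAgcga
Snord14e: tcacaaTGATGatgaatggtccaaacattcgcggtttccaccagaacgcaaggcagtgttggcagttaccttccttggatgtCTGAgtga

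The values were read as FPKM, a unit that scales fragments by exon length and library size, although no header names it. Among genes shorter than the reads, as most members are, 18 to 40 genes per library shared the commonest value above 0. Whether length was scaled in genes that short is not settled. Levels of members and their ratios to host genes are therefore given as listed. Each change given is the CUMS mean less the control mean of log2(FPKM + 1), and a gene was called at a Benjamini-Hochberg adjusted p under 0.05 in limma over all 12302 tested genes. Replicate 1 of each group carried another code in the file headers than the other 4 libraries; its meaning is not stated, and 30.5% of all tested genes differed by it. Of the 53 tested members 12 differed by this code, 11 of them higher in code 2 (17.7% of all genes were higher in code 2). Snord69 differed most among these (log2 difference 1.17, limma adjusted p = 0.00469). In control libraries erythroid markers made up 24.2% to 24.5% of the total FPKM, and in CUMS libraries 26.7% to 29.6%. B-lineage markers made up 0.0965% to 0.103% against 0.0783% to 0.0815%, and stromal markers 0.00796% to 0.00934% against 0.01004% to 0.0117%. The part of these cell type differences in the results was not tested, and in whole marrow more cells of a type and more RNA per cell cannot be told apart.

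C/D box snoRNAs were listed at low levels. Over the 6 libraries 6 members had a mean of 10 FPKM or more, 16 a mean of 5 to 10, 32 a mean of 1 to 5, and 25 a mean above 0 but under 1, while 20 were listed at 0 in every library. A total of 79 were above 0 in at least 1 library and 63 in all 6. The filter of at least 1 FPKM in at least 3 libraries kept 53 members for testing. The 46 that it left out had means of at most 1.02 FPKM. Just inside it lay Snord66 and Snord71, for which the third highest of the 6 values was 1.044 and 1.097 FPKM. Just outside lay Snord38a and Snord1c with 0.983 and 0.904. Snord1c is 97.4% identical to Snord1b, so that the counting could split reads between them. Snord110 alone passed through 1 group, with at least 1 FPKM in all CUMS libraries and in no control library.

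The 8 members of highest mean held 39.5% of the summed FPKM of the class. Snord96a, in the ribosomal scaffold gene Rack1, was the highest, with 21.6, 14.95 and 19.98 FPKM in control replicates 1 to 3 and 22.9, 25.6 and 17.5 in CUMS. Its groups overlapped and its change of 0.21 ± 0.18 (SE) did not pass the test (limma adjusted p = 0.634). Snord47, in the non-coding growth arrest gene Gas5, had 15.6, 9.97 and 9.98 FPKM in controls and 17.9, 13.2 and 19.7 in CUMS. Snord12, in the non-coding gene Zfas1, had 14.5, 7.55 and 10.01 against 10.9, 15.9 and 16.2. For both, the value of 1 control library, replicate 1, lay among the CUMS values, and neither passed the test (limma adjusted p = 0.307 and 0.454). Snord104 had 8.07, 7.12 and 8.80 FPKM against 6.82, 10.3 and 11.49, again with overlapping groups. The order of the means within this top group, from Snord96a (20.4) through Snord22 (15.7), Snord2 (14.8), Snord47 (14.4), Snord100 (13.7) and Snord12 (12.5) to Snord104 (8.76) and Snord34 (8.46), has neighbours closer than the spread of their libraries.

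The imprinted snoRNAs known mainly from brain were listed at 0. The 17 Snord116 copies and Snord64, which lie in the imprinted locus whose loss causes Prader-Willi syndrome in humans and which are encoded within Snhg14, had that value in all 6 libraries. The Snord116 copies are 94.7% to 100% identical to each other, so that the counting could split or drop their reads. Their values of 0 therefore do not show that they were not expressed. Snhg14 itself did not exceed 0.00579 FPKM, and of 6 genes taken as neuronal markers Snrpn and Snap25 were at 0 in every library. Rbfox3, Meg3 and Rian were listed in some libraries at no more than 0.0858 FPKM, whereas Ube3a, which most tissues express, had 5.53 to 8.18 FPKM. Snord13 (U13), which has its own promoter, and Snord123 were the other members at 0 throughout. Snord118 (U8), which also has its own gene and is needed for processing of the large-subunit RNA, was at 0 in 5 libraries and at 0.671 FPKM in CUMS replicate 2. Since the depth is not known in fragments, no upper limit can be put on a value listed at 0.

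In the comparison of CUMS with control, which asked how the marrow transcriptome differed after the stress, 1 C/D box snoRNA passed the test and it was higher. Most others lay towards higher values without passing it. Among all tested genes 1.07% were called, 0.618% higher and 0.455% lower. Snord22, the U22 snoRNA known for its part in maturation of small-subunit ribosomal RNA, had 9.56, 12.06 and 11.05 FPKM in controls and 17.65, 23.2 and 20.4 in CUMS. Every CUMS library lay above every control library. The means were 10.9 ± 1.26 and 20.4 ± 2.78 FPKM (SD, n = 3), and Snord22 rose by 0.85 ± 0.13 (SE) on the log2 scale (limma adjusted p = 0.0293). The direction held in every fit that left out 1 library, but the call did not. Without replicate 2 or 3 of the control group it was lost (limma adjusted p = 0.0759 and 0.139, with 0.268% and 0.138% of all genes called), as it was without replicate 2 or 3 of the CUMS group (0.148 and 0.155, with 0.154% and 0.138% called). It was kept without replicate 1 of the controls (0.0412, with 2.13% called) or of CUMS (0.0402, with 0.585% called). Scaling to the same total also ended it (0.0839, with 1.35% called), as did testing with no filter (0.118, with 0.130% called).

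**Figure D1:**
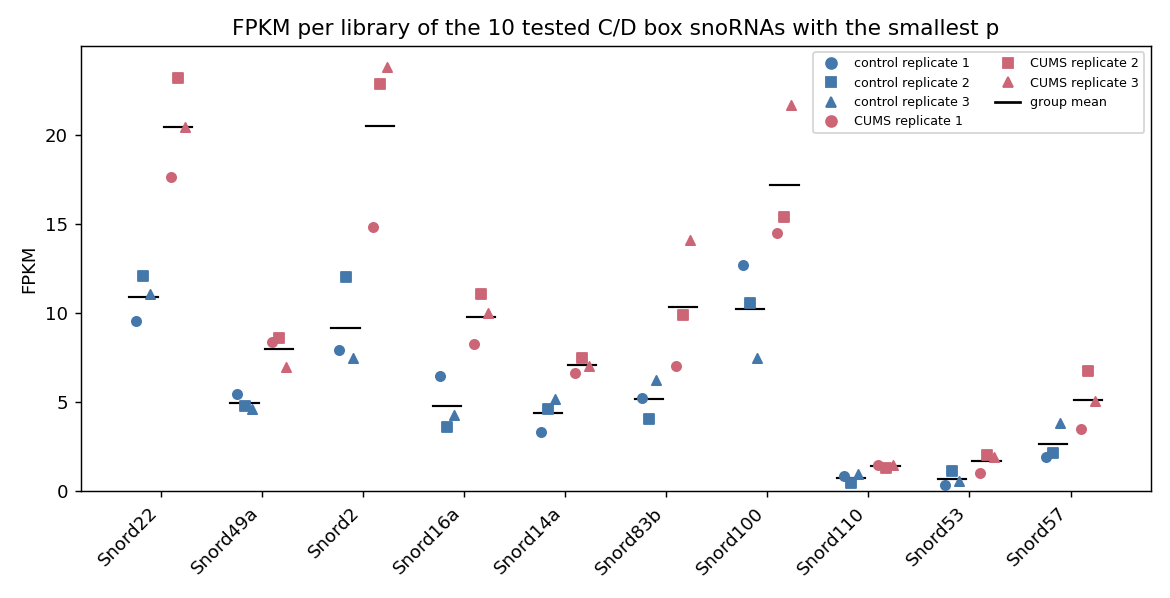
FPKM per library (vertical axis) of the 10 tested C/D box snoRNAs with the smallest p, ordered by it; blue symbols are control and red symbols CUMS libraries, the symbol shape gives the replicate, and black lines are group means. For Snord22 the CUMS values of 17.65 to 23.2 lie apart from the control values of 9.56 to 12.06, whereas the groups of Snord53 and Snord57 overlap.

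Deviations from the group means correlated by 0.689 between the libraries of replicate 1, 0.452 of replicate 2 and 0.363 of replicate 3. Replicates 2 and 3 crossed gave 0.459 and 0.362, so within header code 2 the numbers pair the libraries no better than crossed. With the replicate number as a block 10 members were called, all higher. The background also grew, to 7.80% of all tested genes (3.49% higher and 4.31% lower). The 10 were Snord22, Snord2, Snord16a, Snord49a, Snord14a, Snord83b, Snord53, Snord57, Snord19 and Snord69, and the same 10 were called with the header code as a term, where 11 members were called, all higher (6.06% of all genes higher, 7.31% lower, 13.4% in all). Within the 4 libraries of code 2 these 10 were called too, where 15 members were higher (8.82% of all genes) and 2 lower (8.84%, and 17.7% in all). These fits share libraries, so the repeated calls are not independent of each other. With a single pair of libraries, code 1 gives no test of its own. Among the 53 tested members, 38 were towards higher in that pair (median log2 change 0.23) and 37 in the libraries of code 2 (median 0.40), 28 being higher and 6 lower in both.

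Snord2, in the gene for the translation initiation helicase Eif4a2, had 7.90, 12.04 and 7.49 FPKM in controls and 14.8, 22.8 and 23.8 in CUMS. The lowest CUMS value lay above the highest control value. The log2 change of 1.08 ± 0.22 (SE) missed the threshold without the block (limma adjusted p = 0.0727) and passed with it (0.0113). Snord16a, in the gene of the large-subunit ribosomal protein Rpl4, had 6.47, 3.59 and 4.27 FPKM in controls against 8.28, 11.1 and 10.01 in CUMS, without overlap. Its change was 0.93 ± 0.19 (SE), with limma adjusted p = 0.0742 without the block and 0.0356 with it; it was 0.0212 without control replicate 1. Snord49a had 5.47, 4.76 and 4.63 FPKM against 8.38, 8.61 and 6.99 and the smallest SE of the tested members (0.59 ± 0.12, limma adjusted p = 0.0676, with the block 0.0146, without control replicate 1 0.0476).

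Snord83b, in the gene of the large-subunit ribosomal protein Rpl3, had 5.21, 4.05 and 6.23 FPKM in controls and 7.01, 9.87 and 14.1 in CUMS. The groups did not overlap, and the highest control and the lowest CUMS library were close to each other. Its change was 0.85 ± 0.24 (SE; limma adjusted p = 0.151, with the block 0.0244). Snord100, in the gene of the small-subunit protein Rps12, had 12.7, 10.54 and 7.48 FPKM against 14.5, 15.4 and 21.65. It did not overlap between groups but passed in neither fit (limma adjusted p = 0.172, with the block 0.0894). Snord53, in the nucleolar gene Wdr43, lay near the filter with 0.369, 1.118 and 0.590 FPKM against 1.043, 2.06 and 1.95. Snord57, in the core protein gene Nop56, had 1.92, 2.17 and 3.82 FPKM against 3.51, 6.75 and 5.06. For both, 1 control library lay above CUMS replicate 1, and their changes of 0.67 ± 0.22 and 0.75 ± 0.25 (SE) missed the threshold without the block (limma adjusted p = 0.211 and 0.215) and passed with it (0.0243 and 0.0499). Snord110, a second member within Nop56, had 0.867, 0.496 and 0.970 FPKM in controls and 1.48, 1.31 and 1.46 in CUMS.

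**Figure D2:**
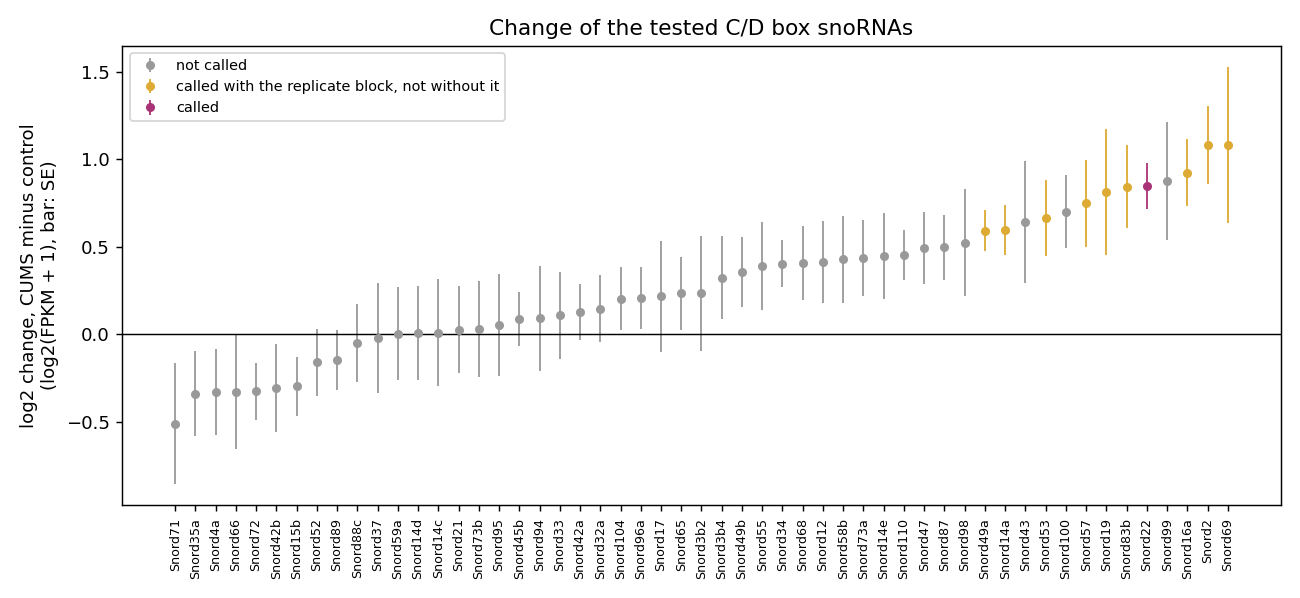
Change of log2(FPKM + 1) from control to CUMS (vertical axis) of the 53 tested C/D box snoRNAs in rising order, with bars of 1 SE. 42 points lie above 0, Snord22 (purple) was called without the block, and 9 further members (yellow) were called with the replicate block but not in the same 6 libraries without it; these lie among the higher changes.

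As a class, 42 of the 53 tested members (79.2%) lay towards higher in CUMS, beside 49.7% of all tested genes, and their median log2 change was 0.23 beside -0.002. After scaling to the same total 38 of 54 lay towards higher, and after quantile normalization 40 of 53. Because a member could enter the test through the group in which it was high, the 35 members with at least 1 FPKM in all 6 libraries were also counted: 29 lay towards higher, with a median of 0.36. Among all 79 members above 0 in any library, 65 were towards higher and 14 towards lower. Unadjusted p was under 0.05 for 15 of the 53, all towards higher, beside 15.4% of all tested genes, 7.02% towards higher. In 11 of the 53 all CUMS libraries lay above all control libraries (10% of all genes), and in 0 they lay below (12.1% of all genes). The 11 include Snord110, for which the filter itself favours that outcome; without it they are 10 of 52.

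The summed FPKM of all 99 members was 224.7, 223.3 and 244.1 in controls and 275.6, 340.5 and 344.0 in CUMS. The groups did not overlap, and the means were 231 ± 11.6 and 320.0 ± 38.5 (SD, n = 3), a ratio of 1.39. Without Snord96a the ratio was 1.41, and with libraries scaled to the same total it was 1.35. After that scaling the groups were barely apart, with 255.9 in control replicate 3 and 256.7 in CUMS replicate 1. The 39 H/ACA snoRNAs of the Snora genes, the other large nucleolar guide class, had 25 tested members, of which 1 was called (higher, beside 0.618% of all tested genes) and 21 lay towards higher (84.0%, beside 49.7%), with a median log2 change of 0.48. With the block 9 of them were called higher (36.0%, beside 3.49%).

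Among the members needed for processing of the ribosomal RNA precursor, Snord22 alone passed without the block. Of the U14 copies, Snord14a had 3.36, 4.63 and 5.15 FPKM in controls and 6.66, 7.49 and 7.04 in CUMS. Its groups did not overlap, and its change was 0.60 ± 0.14 (SE; limma adjusted p = 0.108, with the block 0.0227). Snord14e had 3.14, 3.73 and 5.34 FPKM against 3.77, 7.36 and 6.88, overlapping at replicate 1 (change 0.45 ± 0.25, SE). Snord14c and Snord14d, the nearly identical pair, had 1.92, 2.72 and 3.41 against 2.85, 4.50 and 1.31, and 1.604, 3.36 and 3.12 against 3.12, 1.57 and 3.51. In this pair the lowest value of the 6 was a CUMS library, and their changes were 0.01 ± 0.31 and 0.009 ± 0.27 (SE). Whether Snord14a changed otherwise than its copies was not tested.

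U3, known as an abundant snoRNA of the processing machinery, was listed low here. Of its 5 entries Snord3b4 and Snord3b2 passed the filter and had means of 1.46 and 1.156 FPKM, and both groups of each overlapped. Snord3b1, which did not pass, had 0.617, 0.245 and 0.639 FPKM in controls and 0.896, 2.03 and 1.68 in CUMS. Snord3a had 0.407, 0.669 and 0 against 1.31, 0.634 and 0.675. The U3 genes are multicopy, so that these entries may share reads, and none of the 5 matched the RefSeq table by symbol.

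A host gene was found in the files for 91 members: 52 genes, of which 17 hold at least 2 members. Of these members 57 lie in protein-coding and 34 in non-coding hosts. Tested members numbered 40 in protein-coding hosts, with 31 towards higher and a median log2 change of 0.18, and 10 in non-coding hosts, with 9 towards higher and a median of 0.45. Among the 20 tested members in ribosomal protein genes 15 lay towards higher, with a median of 0.27. Of the members placed by strand, 30 lie under an exon of at least 1 annotated host transcript and 54 under none. The first had a median level of 3.68 FPKM. Of the second, 37 lie outside Snhg14, and their median was 1.19 FPKM. The values do not tell the mature snoRNA from an unspliced or exon-containing host transcript, so the 2 sources cannot be told apart.

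Members of 1 host are given side by side, and differences between them were not tested. Rpl13a, a large-subunit protein gene, holds Snord32a, Snord33, Snord34 and Snord35a, a group known from work on metabolic and oxidative stress. Snord34 had 6.08, 7.66 and 7.65 FPKM in controls against 9.37, 8.55 and 11.4 in CUMS, without overlap (change 0.41 ± 0.14, SE, limma adjusted p = 0.222, with the block 0.0601). Snord35a had 6.16, 7.21 and 10.10 against 3.84, 7.21 and 7.11 and a change of -0.34 ± 0.24 (SE). Snord33, with 6.58, 5.12 and 5.19 against 8.82, 3.75 and 6.69, and Snord32a, with 5.33, 4.79 and 6.36 against 5.05, 5.33 and 8.57, overlapped between groups. Thus none of the 4 passed in either fit, and their directions were mixed, while Rpl13a itself had 984 ± 162 and 957 ± 25.3 FPKM (SD, n = 3). With the header code as a term Snord34 did pass (limma adjusted p = 0.0462, with 6.06% of all genes called higher).

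The non-coding gene 2410006H16Rik holds Snord49a, Snord49b and Snord65. Snord49b had 4.47, 7.10 and 8.28 FPKM in controls against 9.56, 7.28 and 8.89 in CUMS, and Snord65 had 8.02, 4.24 and 6.11 against 6.495, 8.75 and 6.48. Unlike Snord49a, both overlapped between groups. Gnl3, the gene of the nucleolar protein nucleostemin, holds Snord19 and Snord69. Snord69 had 0.366, 3.73 and 2.00 FPKM against 2.78, 6.37 and 5.62, and Snord19 0.940, 2.72 and 1.81 against 1.98, 6.69 and 3.83. For each of the 3 replicate numbers the CUMS library was above the control library of that number, with replicate 1 lowest in either group. Both members missed the threshold without the block (limma adjusted p = 0.305 and 0.335) and passed with it (0.0143 and 0.0119).

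**Figure D3:**
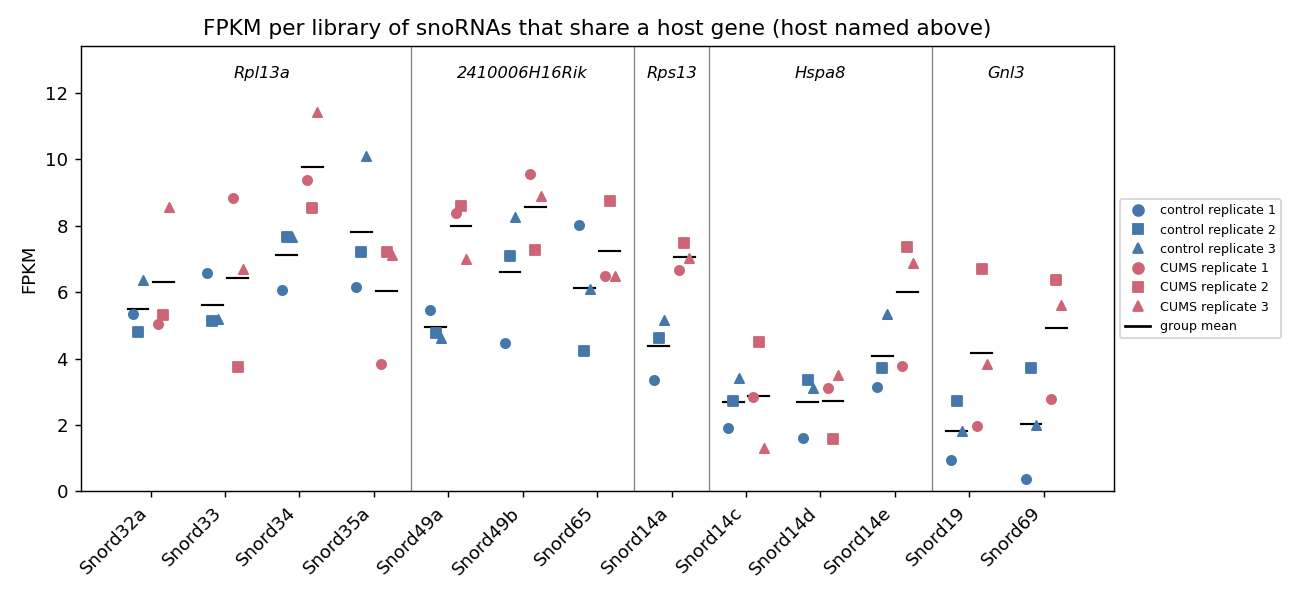
FPKM per library (vertical axis) of snoRNAs grouped by the gene that encodes them, named at the top; blue symbols are control and red CUMS libraries, shapes give the replicate, and black lines are group means. Snord34 and Snord49a are separated between groups, while Snord33 and Snord65, in the same hosts, overlap.

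The remaining members described did not share a direction. Snord87, in Snhg6, had 2.13, 2.08 and 3.07 FPKM in controls and 3.91, 4.86 and 2.83 in CUMS. Snord68, in the gene of the ribosomal protein Rpl13, had 3.03, 3.26 and 1.44 against 3.85, 3.71 and 3.30, so that its groups narrowly did not overlap. Snord15b, in Rps3, had 2.50, 1.90 and 2.04 against 1.13, 1.51 and 2.12, while Snord15a in the same gene stayed at or under 0.441 FPKM. Snord17, one of the longest members, had 0.635, 1.11 and 0.399 against 0.1697, 1.59 and 1.501. Snord15a was not tested, and the others passed in neither fit. Of the members with lower values in CUMS, Snord71 had the most negative change, -0.51 ± 0.35 (SE, limma adjusted p = 0.544), with replicate 1 of both groups far below the other libraries (0.398 and 0.375 FPKM). Snord71 and Snord66 were the 2 members called lower within the libraries of code 2 (limma adjusted p = 0.0143 and 0.0332).

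Of the 52 host genes 50 were tested and 0 were called by limma, with 9 (18%, beside 15.4% of all tested genes) at an unadjusted p under 0.05. Towards higher lay 45 of the 50 (90%, beside 49.7%), with a median log2 change of 0.13. With the replicate block 6 were called higher (12.0%, beside 3.49% of all tested genes): Ncl, Nop58, Wdr43, Gnl3, Snhg1 and Eif4g1. Snhg1, the host of Snord22, had 45.1 ± 5.44 FPKM in controls and 61.7 ± 1.83 in CUMS (SD, n = 3; change 0.45 ± 0.11, SE, limma adjusted p = 0.0991, with the block 0.0242). Eif4a2, the host of Snord2, had 69.4 ± 2.99 and 75.7 ± 7.83 FPKM (change 0.12 ± 0.10, SE, limma adjusted p = 0.634), and Rpl4, the host of Snord16a, 669 ± 135 and 752 ± 91.1 (limma adjusted p = 0.668).

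Relative to its host, a tested snoRNA was listed at 0.174% to 216% of the host's FPKM. The median was 1.92% over 50 members in 36 hosts, and 36 were under 10%. Both ends of the range, Snord73b in Rps3a1 and Snord104 in Gm36220, have hosts placed by RefSeq span with no strand given. Among members placed by strand, Snord42b was lowest (0.203%) and Snord12 highest (45.8%). The ratio of Snord2 to Eif4a2 was 11.4%, 16.6% and 11.3% in controls and 21.6%, 27.2% and 31.9% in CUMS, with no overlap. That of Snord16a to Rpl4 was 0.784%, 0.615% and 0.714% against 0.967%, 1.59% and 1.43%, also without overlap. In contrast the ratio of Snord22 to Snhg1 was 18.6%, 28.9% and 26.2% against 28.2%, 38.9% and 32.5%, and these groups overlapped. The ratio lay higher in all CUMS libraries for 6 members (Snord2, Snord16a, Snord34, Snord49a, Snord99 and Snord110) and lower for 1, Snord72 (1.74%, 1.56% and 2.17% against 1.49%, 1.11% and 1.52%). The filter favours this outcome for Snord110. These 7 of 50 ratios are a description, and no share over other gene pairs was computed; of single genes 10% lay above and 12.1% below. Snord72 itself had 4.95, 3.58 and 5.71 FPKM against 3.49, 3.09 and 4.06 (change -0.33 ± 0.16, SE, limma adjusted p = 0.394). In 31 of the 50 the change of the snoRNA lay above that of its host, and in 13 the signs were opposite. The count of 31 depends on the 1 FPKM added before the logarithm, which shrinks changes of low snoRNAs more than those of higher hosts. With 0.1 added, the median change was 0.276 for tested members and 0.139 for tested hosts. With 10 added, the medians were 0.096 and 0.106. Across these 50 pairs, which share the same libraries and in part the same host, the changes correlated with a Pearson coefficient of 0.32 and a Spearman coefficient of 0.37, given as a description.

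**Figure D4:**
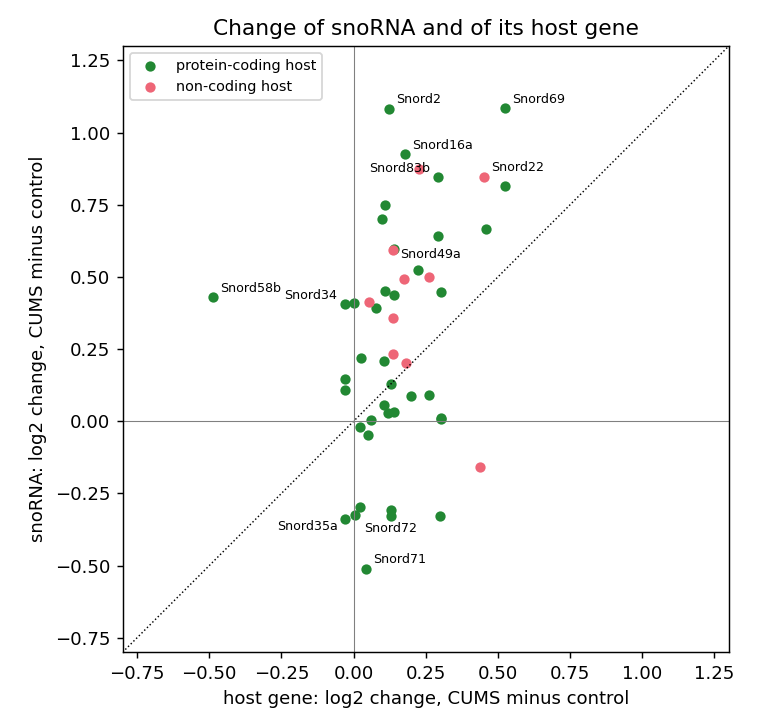
Log2 change of each snoRNA (vertical axis) against that of its host gene (horizontal axis), both from control to CUMS in log2(FPKM + 1), for 50 snoRNAs in 36 hosts; green points have protein-coding and red points non-coding hosts, and the dotted line marks equal change. Of the points, 31 lie above the line, among them Snord2 (1.08 against 0.12 for Eif4a2). The line marks equal change on this scale only, since the added 1 FPKM shrinks changes of low snoRNAs more than those of higher hosts.

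A wider list of 34 genes, all tested, held core, U3-specific and assembly proteins of the snoRNA particle. It also held factors of export, capping, the Cajal body, release and trimming, and nucleolar factors for ribosomal RNA. None was called by limma (0 of 34, beside 1.07% of all tested genes), and 7 (20.6%, beside 15.4%) had an unadjusted p under 0.05. Towards higher lay 28 (82.4%, beside 49.7%), and the median log2 change was 0.18. Among the core proteins, the methyltransferase Fbl had 55.9 ± 5.97 and 63.5 ± 6.68 FPKM in controls and CUMS (SD, n = 3), Nop56 32.5 ± 3.85 and 35.2 ± 5.46, and Snu13 49.3 ± 6.18 and 57.6 ± 6.21. The groups of these 3 overlapped. Nop58, the remaining core protein, had 24.9 ± 2.43 and 35.6 ± 2.16 FPKM without overlap (change 0.50 ± 0.10, SE, limma adjusted p = 0.0725, with the block 0.0136). With the block the nucleolar factors Ncl (nucleolin) and Nolc1 and the pseudouridine synthase of the H/ACA class, Dkc1, were also called higher (limma adjusted p = 0.0175, 0.0125 and 0.0187), so that 4 of the 34 were called higher (11.8%, beside 3.49% of all tested genes). Ncl, Nop56 and Nop58 are also among the host genes, so the calls of Ncl and Nop58 are counted in both lists. Of the 7 assembly factors tested, Ruvbl1, Rpap3 and Ruvbl2 had changes of 0.17, 0.12 and 0.12, and Nufip1, Pih1d1, Znhit3 and Znhit6 of -0.02, -0.02, -0.006 and -0.08.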

How the data were processed

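RNA of 6 mouse bone marrow samples was extracted with TRIzol, made into libraries with a TruSeq RNA kit and sequenced as paired reads of 151 bp, per the labels' protocols; no small-RNA kit is named. The authors deposited 1 value per gene and library, read here as FPKM from the values, since no header names the unit. Tools named by the submitters' processing notes are DESeq2 2.11.40.6, featureCounts 1.6.4, HISAT2 2.1, cutadapt 1.16.5 and bcl2fastq 2.19, with the build mm10; which of them made the deposited FPKM values, and whether the counting was stranded, is not given in the sources used here.

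Depth in fragments is not given. In genes shorter than the reads the commonest value above 0 was 0.185 to 0.205 FPKM per library, and the next commonest was 2 times it. In units of this step, tested members averaged 4.7 to 106.6 (median 20.1), and 25 of 53 were under 20. Whether a step is 1 fragment is not stated, so no counting interval was computed. The median SE was 0.24 for tested members and 0.13 for all tested genes.

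The 12302 genes that reached 1 FPKM in 3 or more of the 6 libraries were fitted with limma 3.58.1 (R 4.3.3; trend of variance, group as the only term) on log2(FPKM + 1), and p-values were adjusted by Benjamini-Hochberg over all of them with a threshold of 0.05. The test was checked on simulated data, with changes placed only in genes above about 5 FPKM. Of the 53 tested members 31 had a mean under 5 FPKM, so recovery of changes at their levels was not checked. Plots used matplotlib 3.10.9 and tables pandas 2.3.3 and numpy 2.4.6, under Python 3.11.15. The labels do not say whether libraries are separate animals, so p-values measure the spread between these samples only, and an exact permutation test of 3 against 3 cannot go below 0.1. Deviations from the group means correlated across genes by 0.689, 0.452 and 0.363 between libraries of the same replicate number in the titles. All were above 0.1, so the number was used as a block. Replicates 2 and 3 crossed gave 0.459 and 0.362, so the numbers do not pair those libraries better than crossed. For replicate 1 pairing and header code cannot be told apart.

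The members and all lists were chosen with earlier results of these data known. Named members were those called, the 10 smallest p, the 8 highest means, a fixed set, and those next to the filter; Snord99, Snord72, Snord19, Snord69, Snord3b1, Snord3b2, Snord3b4, Snord65 and Snord123 and the pathway genes beyond the core were named after their values were seen. Host genes are those spanning the snoRNA on its strand in GENCODE for GRCm38 (84 members), the others by RefSeq span or synonym. Marker lists not given with the results had these shares of the summed FPKM in controls and CUMS: neutrophil 8.45% to 10.1% and 8.09% to 8.60%, monocyte 0.149% to 0.167% and 0.144% to 0.156% (2 of 5 called lower), plasma cell 0.00760% to 0.00912% and 0.00804% to 0.00932%, T cell 0.00245% to 0.00310% and 0.00286% to 0.00316%, megakaryocyte 0.00785% to 0.00848% and 0.00771% to 0.00869%, neuron 0.000937% to 0.00140% and 0.000861% to 0.00137%.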

Additional observations from a re-analysis of the deposited data

How the results depend on the processing

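The call of 1 C/D box snoRNA became 0 with no filter on low values and with libraries scaled to the same total, 10 with the replicate block, 11 with the header code as a term and 17 (15 higher, 2 lower) within the libraries of header code 2; without 1 library it ranged from 0 to 3. Host gene calls, 0 in the fit without a block, were 6 with the replicate block, 9 with the code term, 21 within code 2, 2 with the same total, and 0 to 6 without 1 library. Calls of the wider list of 34 genes, also 0, were 4 (11.8%), 7 (20.6%), 11 (32.4%), 2 (5.9%), and 0 to 2 (at most 5.9%) in the same settings. All these host and list calls were higher. Of all tested genes 3.49% were called higher with the replicate block, 6.06% with the code term and 8.82% within code 2. That share was 0.5% with the same total and 0.1% to 1.3% without 1 library. With settings added after the data were seen, quantile normalization gave 3 host calls (6.0%) and 2 of the wider list (5.9%), beside 0.9% of all genes higher. A pseudocount of 10 and a minimum of 10 FPKM each gave 1 of either list, beside 0.7% and 1.0% of all genes higher. Beyond the calls given, the replicate block changed no call of a named member. Over 28 named tested members, 403 of 454 alternative values kept direction and side of the threshold, 6 lost the call and 31 gained it. The other 14, none called, reversed sign: Snord14c was -0.021 with a pseudocount of 0.1, -0.026 with the same total and -0.184 within code 2; Snord14d -0.028 with the same total and -0.316 within code 2; Snord33 -0.026 within code 2. Without 1 library, these 3 ranged from -0.285 to 0.342, -0.225 to 0.258 and -0.126 to 0.398, and Snord32a from -0.063 to 0.268. The main limits are the low levels, the reads longer than the snoRNAs, 3 libraries a group and the unstated header code.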
